A study of Mus musculus with 6 samples.

Results

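The genes described here are 10 members of the BCL2 family, chosen by symbol, with no rule on their values. They are the survival genes Bcl2, Bcl2l1 and Mcl1, the effector genes Bax and Bak1, and the BH3-only genes Bcl2l11, Bad, Bid, Bbc3 and Pmaip1. Earlier results of these data were known when the members were chosen. All 10 were found among the 15845 genes of the count table, and all 10 passed the low-count filter of the test. RNA was sequenced from LSK cells, the bone marrow cells that lack lineage markers and carry Sca1 and c-Kit, a fraction of stem cells and early progenitors. The 3 TP-3654 libraries came from mice given TP-3654, which the series title names as an inhibitor of the kinase Pim1, at 150 mg/kg/day for 6 weeks. The 3 vehicle libraries came from mice given PBS. All 6 carried Mx1Cre and homozygous Jak2 V617F (Jak2VF/VF) on C57BL/6, so no library without the Jak2 mutation serves as a control. Mx1Cre is driven by an interferon-responsive promoter and is not limited to blood cells. The design text calls the libraries biological replicates, and p-values measure the spread between 3 of them in each group.

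BCL2 family proteins decide whether the outer mitochondrial membrane is opened, the step that releases cytochrome c and starts the caspase cascade. BAX and BAK open the membrane. BCL2, BCL-XL and MCL1 hold them in check, and the BH3-only proteins, which sense particular kinds of stress, bind the survival proteins or the effectors and so promote opening. Blood stem cells of mice need MCL1 to survive. JAK-STAT signalling raises transcription of survival genes in blood cells, and PIM kinases phosphorylate the BAD protein, which is then held by 14-3-3 proteins. Such protein events, and cell death itself, are not measured by RNA counts.

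The family shares the BH3 helix, the short stretch by which a death protein fits into a groove on a survival protein. The coding bases of its core are shown because this is what the 10 proteins have in common and what the BH3-only proteins act with. They were read from GENCODE transcripts of GRCm38 for 9 of the members, all but Pmaip1, whose sequence is not used here, each within 1 coding exon, with coordinates on that build and the strand of the gene. The capitals mark the 6 codons from leucine to aspartate, and 3 codons stand on either side.
Bcl2, chr1:106712575-106712610, minus strand: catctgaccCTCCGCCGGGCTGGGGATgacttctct
Bcl2l1, chr2:152829697-152829732, minus strand: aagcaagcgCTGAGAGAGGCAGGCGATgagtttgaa
Mcl1, chr3:95659427-95659462, plus strand: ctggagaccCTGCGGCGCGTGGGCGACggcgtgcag
Bax, chr7:45465997-45466032, minus strand: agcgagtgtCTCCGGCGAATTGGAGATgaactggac
Bak1, chr17:27022531-27022566, minus strand: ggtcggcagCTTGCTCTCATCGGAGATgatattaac
Bcl2l11, chr2:128147141-128147176, plus strand: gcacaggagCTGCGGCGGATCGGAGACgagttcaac
Bad, chr19:6950783-6950818, plus strand: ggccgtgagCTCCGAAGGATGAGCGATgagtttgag
Bid, chr6:120897289-120897324, minus strand: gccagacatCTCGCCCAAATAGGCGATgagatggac
Bbc3, chr7:16313764-16313799, plus strand: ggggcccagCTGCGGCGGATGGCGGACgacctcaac
The stretch was found by a search for leucine, any 3 residues, then glycine, serine or alanine, then aspartate, so the search set which residues could stand at those places. Residue 2 of the core is arginine in 7 of them and alanine in 2, Bak1 and Bid. Glycine stands before the aspartate in 7, serine in Bad and alanine in Bbc3. Bax and Bcl2l11 encode the same 6 residues, with some of the codons alike and some not.

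None of the 10 members was called by edgeR's quasi-likelihood test, adjusted over all 13149 tested genes, at an adjusted p under 0.05. That test called 0.0% of all genes. At an unadjusted p under 0.05 there were 5 members, Bax, Bak1, Bid, Bbc3 and Pmaip1, all lower in the TP-3654 libraries, and 0 higher. Over all tested genes, 17.1% passed that rule, 6.84% lower and 10.2% higher. That comparison is limited, since the members were chosen with earlier results of these data known. The members lower by that rule numbered 5 without TP-3654 replicate 1 (background 6.38%), 6 without replicate 2 (7.68%) and 3 without replicate 3 (5.27%), namely Bak1, Bid and Pmaip1. They numbered 3 without vehicle replicate 1 (background 5.02%), 4 without vehicle replicate 2 (5.35%) and 2, Bid and Pmaip1, without vehicle replicate 3 (5.31%). Each of the 5 promotes death, and none of the 3 survival genes passed that rule with all libraries. The 95% intervals of Bcl2 (-0.38 to 0.29) and Bcl2l1 (-0.47 to 0.32) include the Bax log2 fold change of -0.35. The interval of Mcl1 (-0.26 to 0.26) does not include it. Of the other members that promote death, Bad was at -0.41 and Bcl2l11 at 0.25. A difference between the classes was not tested. The TP-3654 values lay below every vehicle value for 5 members, Bax, Bak1, Bad, Bid and Pmaip1, and above every vehicle value for 0. Of all tested genes, 25.9% had groups that did not overlap. The share lower was 11.6% and the share higher 14.3% with TP-3654. The median log2 fold change (TP-3654 minus vehicle) was -0.36 over the 10 members and 0.01 over all tested genes. Levels below are CPM, that is, counts relative to library size scaled by TMM factors, and fold changes carry the standard error (SE) of the edgeR fit.

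Library totals ran from 20582057 to 25315596 counts, and the lowest count of any member in any library was 129, well above the 3 counts taken as the floor. TP-3654 replicate 3 stood apart. It was alone at the far end of the first principal component, which held 51.2% of the variance, and it had the lowest value of the 6 libraries at 32.3% of tested genes and the highest at 28.9%. It had the lowest value for 8 of the 10 members, so each comparison is also given without it where that matters. The sort marker Kit had 436 to 581 CPM with TP-3654 and 365 to 377 CPM with vehicle, so every TP-3654 library lay above every vehicle library. The sort marker Ly6a (Sca1) had 60.5 to 68.3 CPM with TP-3654 and 40.0 to 69.2 CPM with vehicle, which overlapped. The sum of both was 497 to 649 CPM with TP-3654 and 405 to 444 CPM with vehicle, and its part in the results was not tested. Of the T cell genes, Cd3e, Cd3d, Cd3g and Cd8a stayed at or below 0.183 CPM, and of the B cell genes, Ebf1 and Ms4a1 stayed at or below 0.225 CPM. In these bulk samples fewer cells of a type and less RNA per cell cannot be told apart.

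**Figure D1:**
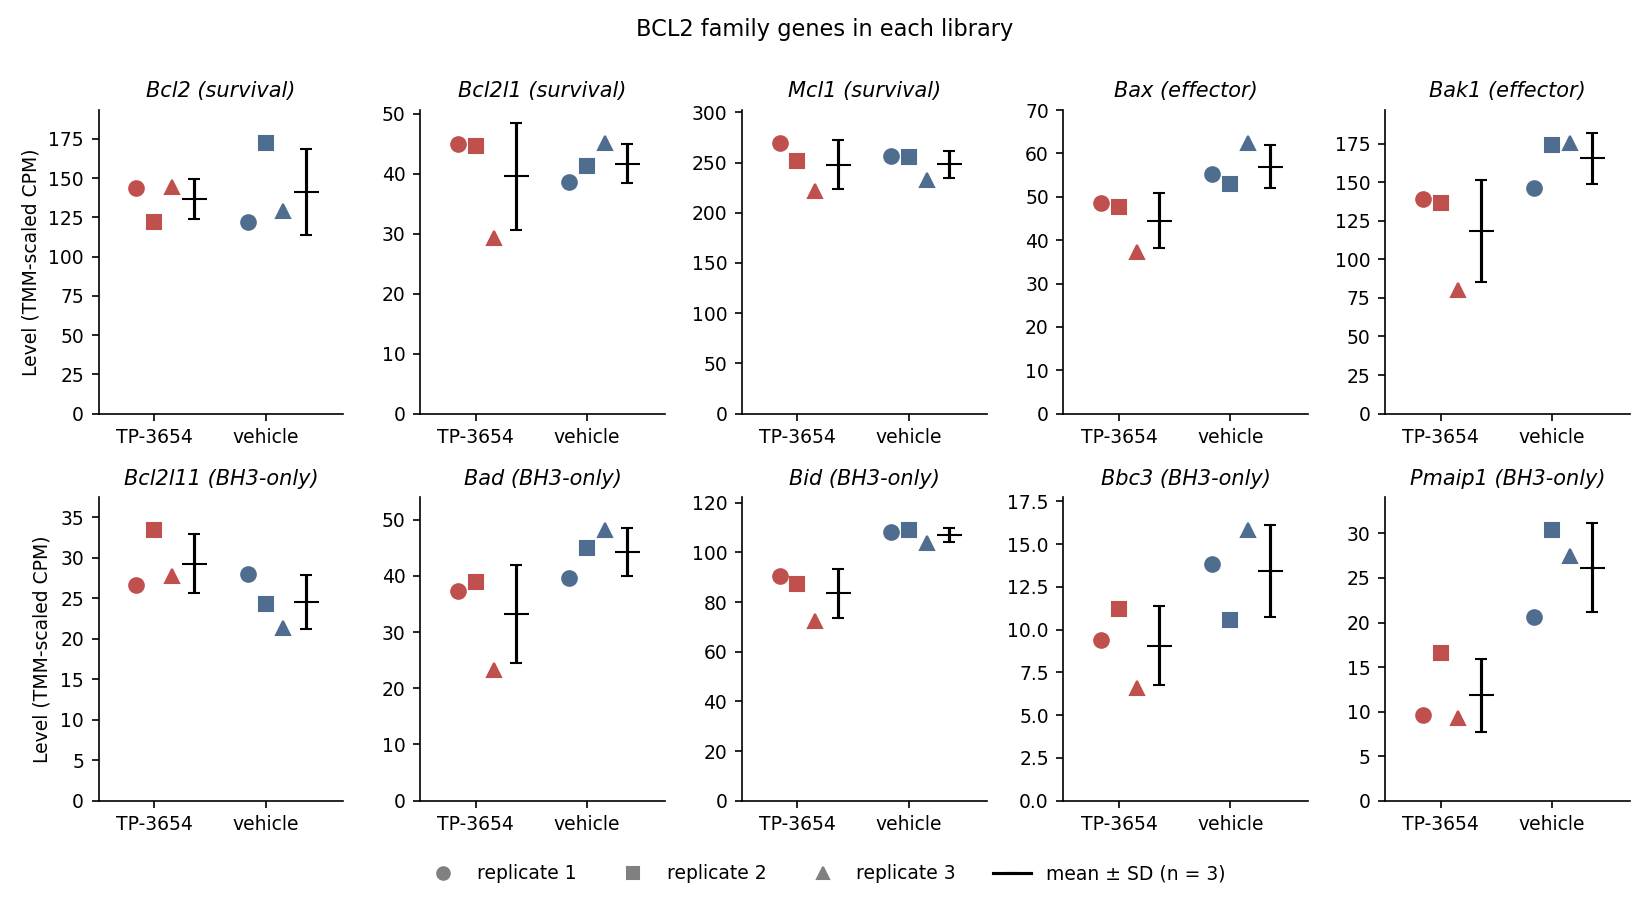
Level of each member in TMM-scaled CPM (y axis, from 0) in the 3 TP-3654 and 3 vehicle libraries, with symbols for the replicate and a bar for the mean ± SD (n = 3). TP-3654 replicate 3 is the lowest point in 8 of the 10 panels, and the groups do not overlap for Bax, Bak1, Bad, Bid and Pmaip1.

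The survival genes Mcl1, Bcl2 and Bcl2l1 had log2 fold changes near 0, with a median of -0.05. Mcl1 (chromosome 3, 95656944 to 95663179, GRCm38), which encodes a short-lived protein that restrains BAK and binds NOXA and BIM, had 270 (replicate 1), 252 (replicate 2) and 222 (replicate 3) CPM with TP-3654, against 257, 256 and 233 CPM with vehicle. The groups overlapped fully and their means were 248 ± 24.2 and 248 ± 13.4 CPM (SD, n = 3 each). The log2 fold change was -0.0027 (SE 0.11, edgeR adjusted p = 0.993). Its 95% interval, -0.26 to 0.26, spans changes in both directions.

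Bcl2 (chromosome 1, 106538176 to 106714290), the founding survival gene of the family, had 143, 122 and 144 CPM with TP-3654, against 122, 173 and 129 CPM with vehicle. Vehicle replicate 2 was the highest library and the others lay close together. The log2 fold change was -0.05 with an interval of -0.38 to 0.29 (edgeR adjusted p = 0.885). Bcl2l1 (chromosome 2, 152758732 to 152833803), which encodes BCL-XL, known for its role in red cell precursors and platelets, had 44.9, 44.6 and 29.3 CPM with TP-3654. It had 38.7, 41.2 and 45.2 CPM with vehicle. Only TP-3654 replicate 3 lay outside the vehicle range on the low side. The log2 fold change of Bcl2l1 was -0.07 with an interval of -0.47 to 0.32 (edgeR adjusted p = 0.844), and it was 0.09 without TP-3654 replicate 3.

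Both effector genes lay lower with TP-3654 in every library. Bax (chromosome 7, 45461695 to 45466903) had 48.6, 47.6 and 37.3 CPM with TP-3654, against 55.2, 52.96 and 62.5 CPM with vehicle. The gap was narrow, between 48.6 CPM in the highest TP-3654 library and 52.96 CPM in the lowest vehicle library. The fitted level of Bax was 1.28-fold lower (log2 fold change -0.35, SE 0.14, unadjusted p = 0.0303, edgeR adjusted p = 0.253). Bak1 (chromosome 17, 27019812 to 27028627) had 139, 136 and 80.4 CPM with TP-3654, against 146, 174 and 176 CPM with vehicle. Its groups did not overlap, and TP-3654 replicate 3 was far below all other libraries. The fold change of Bak1 was -0.48 on the log2 scale (SE 0.20, unadjusted p = 0.0449, edgeR adjusted p = 0.281) and -0.28 without TP-3654 replicate 3. That is a move of over 1.5 times in the log2 value, and the log2 value of Bax without that library was -0.25.

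Among the BH3-only genes, Pmaip1 showed the lowest TP-3654 level relative to vehicle of all 10 members. Pmaip1 (chromosome 18, 66458604 to 66465558) encodes NOXA, which binds MCL1 and speeds its breakdown. It had 9.67, 16.6 and 9.30 CPM with TP-3654, against 20.6, 30.4 and 27.5 CPM with vehicle. Every TP-3654 library lay below every vehicle library, and TP-3654 replicate 2 came nearest to vehicle replicate 1. The means were 11.8 ± 4.09 CPM with TP-3654 and 26.2 ± 5.04 CPM with vehicle (SD, n = 3 each). The level was 2.2-fold lower (log2 fold change -1.14, SE 0.25, 95% interval -1.71 to -0.56), with an unadjusted p of 0.00152 and an edgeR adjusted p of 0.0931. Without 1 library at a time the log2 fold change ranged from -1.46 to -1.001, the value without TP-3654 replicate 3.

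DESeq2 and the authors' deposited table placed Pmaip1 past the threshold that edgeR's test did not reach. DESeq2 on the same counts gave it an adjusted p of 0.00107, where 4.92% of the genes with an adjusted p were called and 1.92% were called lower with TP-3654. It was the only member DESeq2 called. The authors' deposited table gives Pmaip1 a log2 fold change of -1.17 (deposited SE 0.38) and a deposited adjusted p of 0.0389, in a table where 5.32% of genes are called, 2.48% lower with TP-3654. No other member passes in the authors' deposited table. The means in that table do not match the deposited counts. For Pmaip1 its mean of normalized counts is 260.2, and the counts themselves give 428.6. The ratio of the deposited mean to the mean from the counts ran from 0.607 to 1.13 over the members, with a median of 0.879 over 12994 genes. What the difference comes from is not given in the sources used here.

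Bid (chromosome 6, 120893119 to 120917062) links death receptors to mitochondria, since caspase 8 cleaves its protein into the active form. It had 90.5, 87.4 and 72.4 CPM with TP-3654, against 108, 109 and 104 CPM with vehicle. The vehicle libraries were tightly grouped, and each TP-3654 library lay below all of them. Bid was 1.28-fold lower (log2 fold change -0.36, SE 0.12, unadjusted p = 0.0120, edgeR adjusted p = 0.184). Its log2 fold change without 1 library at a time ran from -0.42 to -0.28, and its unadjusted p stayed under 0.05 in all 6 of those fits. Pmaip1 and Bid were the only members of which that held.

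Bbc3 (chromosome 7, 16308398 to 16318334) encodes PUMA, a BH3-only protein that p53 induces and that kills blood progenitors after DNA damage and cytokine loss. It had 9.39, 11.2 and 6.59 CPM with TP-3654, against 13.8, 10.5 and 15.9 CPM with vehicle. The groups overlapped, since TP-3654 replicate 2 lay above vehicle replicate 2. Bbc3 was 1.48-fold lower (log2 fold change -0.56, SE 0.24, unadjusted p = 0.0455, edgeR adjusted p = 0.282), and the log2 value was -0.39 without TP-3654 replicate 3. In the authors' deposited table its log2 fold change is -0.32 with a deposited adjusted p of 0.670.

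Bad (chromosome 19, 6941861 to 6951905), whose protein is the PIM substrate, had 37.4, 39.0 and 23.3 CPM with TP-3654, against 39.7, 44.9 and 48.3 CPM with vehicle. The groups did not overlap but came within 1 CPM of each other. The log2 fold change of Bad was -0.41 (SE 0.20, unadjusted p = 0.0627, edgeR adjusted p = 0.314) and -0.22 without TP-3654 replicate 3. Bcl2l11 (chromosome 2, 128126038 to 128162547) encodes BIM, the BH3-only protein that removes blood cells deprived of cytokines. It was the only member with a fold change above 0. It had 26.6, 33.5 and 27.8 CPM with TP-3654, against 28.0, 24.3 and 21.4 CPM with vehicle. The groups overlapped, and the log2 fold change was 0.25 with an interval of -0.10 to 0.61 (edgeR adjusted p = 0.421). Leaving out TP-3654 replicate 2 gave 0.15, and leaving out vehicle replicate 3 gave 0.16.

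**Figure D2:**
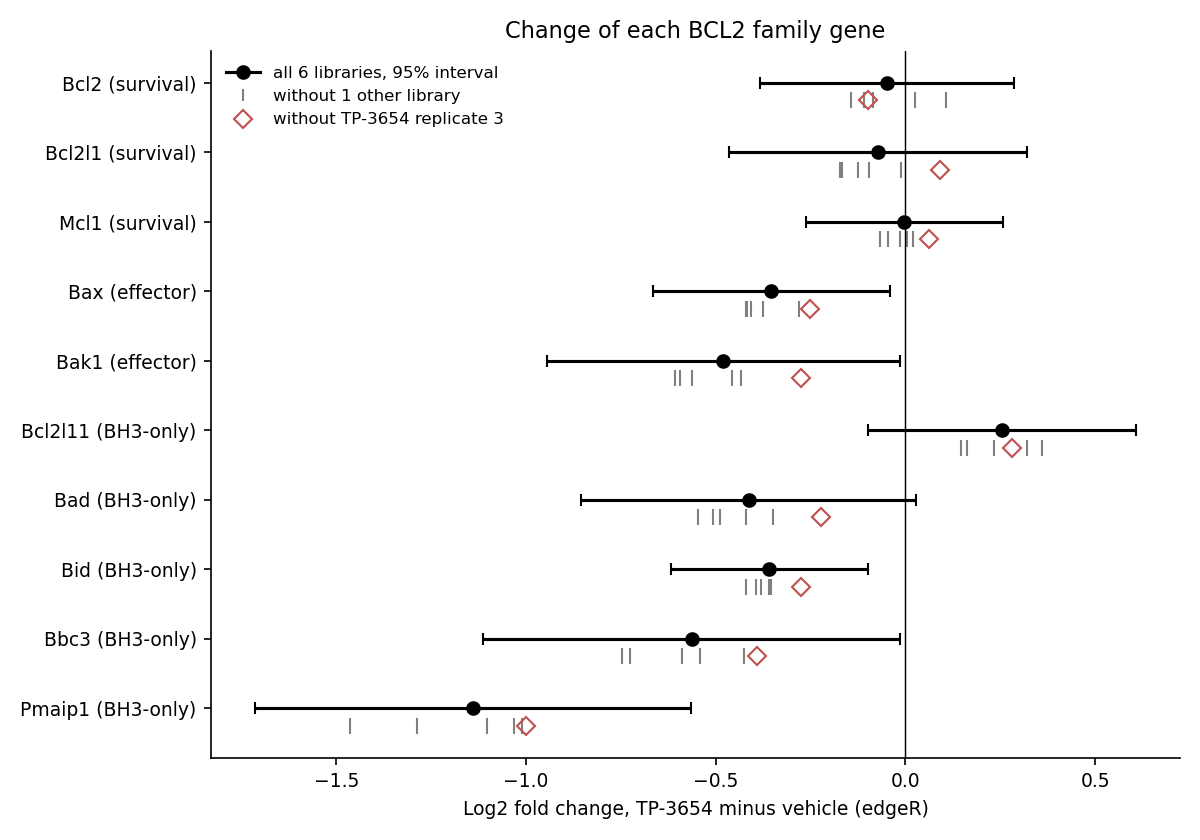
Log2 fold change of each member, TP-3654 minus vehicle, from edgeR (x axis), with its 95% interval (black) and the values without 1 library below it. The value without TP-3654 replicate 3 (open diamond) lies nearer 0 than the value from all 6 libraries for Bax, Bak1, Bad, Bid, Bbc3 and Pmaip1, and the survival genes lie at or near 0.

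The counts do not tell strands apart in any stated way, and 4 members share exon bases with a gene on the opposite strand. Bad shares 20.5% of its exon bases with Gpr137, which had 26.9 ± 2.96 CPM with TP-3654 and 31.4 ± 3.45 CPM with vehicle (SD, n = 3 each). Bid shares 17.7% with Bcl2l13, a relative of the family, which had 105 ± 22.1 CPM with TP-3654 and 126 ± 9.09 CPM with vehicle. Bak1 shares 18.2% with Ggnbp1, which had 1.94 ± 0.602 CPM with TP-3654 and 1.61 ± 0.465 CPM with vehicle, a level far below that of Bak1. Bcl2 shares 6.09% with an antisense RNA. Bax shares 12.2% with a predicted gene on its own strand, and 11.1% of its 31-base words occur in another locus. For each of the other 9 members that share was at most 0.604%.

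Per length of exon, the order of the members was led by Mcl1. It stood at 72.6 ± 7.07 CPM per kilobase with TP-3654 and at 72.7 ± 3.91 with vehicle (SD, n = 3 each). Bak1 followed at 49.3 ± 13.7 CPM per kilobase with TP-3654 and 68.7 ± 6.86 with vehicle. Mcl1 lay above Bak1 in all TP-3654 libraries, whereas the ranges of these neighbours overlapped in vehicle libraries. Bax came next, at 28.2 ± 4.0 CPM per kilobase with TP-3654 and 36.1 ± 3.16 with vehicle. Bid had 23.5 ± 2.74 with TP-3654 and 30.2 ± 0.796 with vehicle on that scale.

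By all exons, Bcl2 and Bad came after Bid and did not differ from each other beyond their spread in either group. Bcl2 had 14.9 ± 1.39 CPM per kilobase with TP-3654 and 15.4 ± 3.0 with vehicle, and Bad had 13.0 ± 3.38 with TP-3654 and 17.3 ± 1.69 with vehicle. Bcl2l1 had 8.64 ± 1.94 CPM per kilobase with TP-3654 and 9.10 ± 0.718 with vehicle. Pmaip1 differed between groups in its place beside Bcl2l1 when all exons gave the length. It had 4.34 ± 1.5 CPM per kilobase with TP-3654, below Bcl2l1 in every library, and 9.58 ± 1.84 with vehicle, where the ranges overlapped. The lowest means by all exons were those of Bbc3 and Bcl2l11. Bbc3 had 4.26 ± 1.09 with TP-3654 and 6.31 ± 1.26 with vehicle. Bcl2l11 had 3.65 ± 0.459 with TP-3654 and 3.06 ± 0.416 with vehicle. The ranges of Bbc3 and Pmaip1 overlapped with TP-3654. The order depends on the length taken. The longest transcript in place of all exons raised Bcl2l1 to 16.2 and Bax to 51.7 CPM per kilobase in vehicle libraries. By that length, vehicle libraries had 7.56 to 11.2 for Pmaip1 and 15.1 to 17.6 for Bcl2l1. Pmaip1 then lay below Bcl2l1 in every library of both groups. Bad (25.9 to 31.5) then lay above Bcl2 (17.0 to 24.0) without overlap in vehicle libraries, though not with TP-3654. Pmaip1 had the lowest TP-3654 mean by that length, at 4.34.

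**Figure D3:**
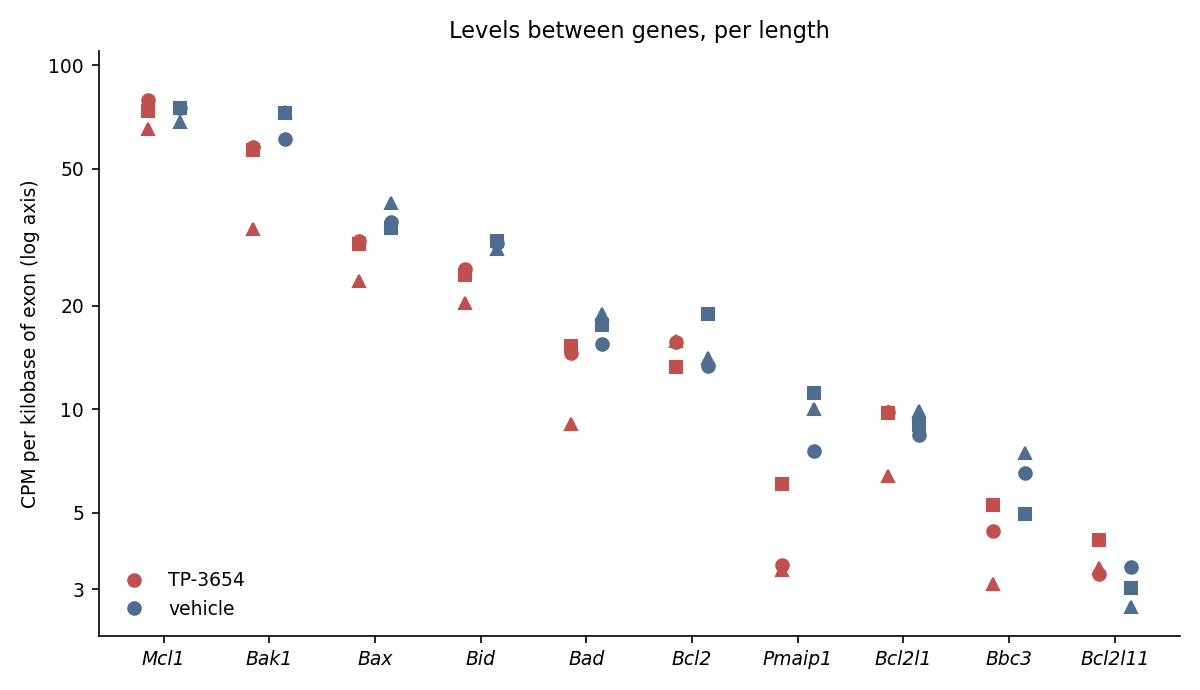
CPM per kilobase of annotated exon (log axis) for each member in every library, ordered by the vehicle mean, with TP-3654 points left of vehicle points. Mcl1 and Bak1 are the highest, and Bcl2l11 is the lowest in vehicle libraries at 3.06 CPM per kilobase.

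A ratio of raw counts between a pair of members within a library does not depend on how libraries are scaled. The pairs were chosen after their values were seen, from partners known to bind each other, and carry no test. The Mcl1 count was 27.9, 15.2 and 23.9 times that of Pmaip1 with TP-3654, against 12.5, 8.39 and 8.49 times with vehicle, with no overlap. The Bcl2l1 count was 0.324, 0.327 and 0.365 times that of Bak1 with TP-3654, against 0.264, 0.237 and 0.258 times with vehicle, again with no overlap. Both ratios were thus higher with TP-3654 in every library. They restate the lower Pmaip1 and Bak1 values, beside Mcl1 and Bcl2l1 values that overlapped between groups. The share of all gene pairs that separate in this way was not counted. The ratio overlapped for Bcl2 over Bax, at 2.95, 2.56 and 3.87 with TP-3654 and 2.21, 3.26 and 2.06 with vehicle. For Mcl1 over Bcl2l11 the ratios were 10.1, 7.52 and 8.0 with TP-3654 and 9.16, 10.5 and 10.9 with vehicle, which also overlapped.

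**Figure D4:**
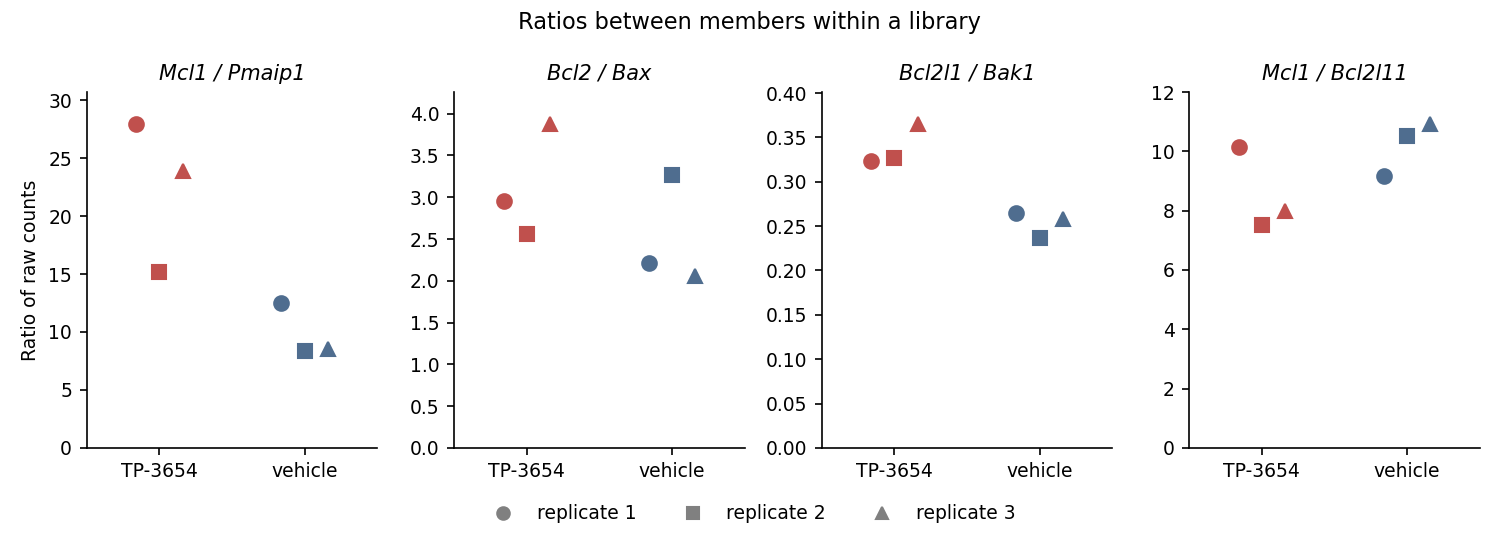
Ratio of raw counts between a pair of members in each library (y axis, no unit, from 0), TP-3654 left of vehicle. The groups do not overlap for Mcl1 over Pmaip1 (15.2 to 27.9 with TP-3654 and 8.39 to 12.5 with vehicle) or Bcl2l1 over Bak1, and overlap in the other panels.

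The other genes of the death pathways were taken from 5 lists, and edgeR called 0 genes in any of them over all genes. The counts at an unadjusted p under 0.05 in each list stand beside 6.84% lower and 10.2% higher over all tested genes. Of 15 other BCL2 family genes, 13 were in the count table and 9 were tested. Bok, an effector-like member, was higher at an unadjusted p under 0.05, at 7.74 ± 3.25 CPM with TP-3654 and 4.08 ± 1.34 CPM with vehicle (SD, n = 3 each), with groups that overlapped, and 0 were lower. Bcl2a1a, Bcl2a1b and Bcl2a1d, survival genes that share 79.6% to 89.1% of their 31-base words with other loci, stayed at or below 2.91 CPM in every library and are uncertain singly. The list's median log2 fold change was -0.17, against 0.01 over all tested genes.

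Of 19 caspase and apoptosome genes, 3 were lower and 0 higher at an unadjusted p under 0.05, with a list median of -0.07. Htra2, a mitochondrial protease that blocks caspase inhibitors once released, had 83.9 ± 11.2 CPM with TP-3654 and 105 ± 3.83 CPM with vehicle. Birc5, which encodes survivin and also serves in mitosis, had 111 ± 28.3 CPM with TP-3654 and 152 ± 4.34 CPM with vehicle. Birc5 stood beside lower values of the mitosis markers, of which 4 of 10 were lower and 0 higher at an unadjusted p under 0.05. Their summed level was 1925 to 2542 CPM with TP-3654 and 2616 to 2794 CPM with vehicle. Their part in the Birc5 value was not tested.

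In the death receptor list, 9 of 10 genes were tested, 1 was higher and 2 were lower at an unadjusted p under 0.05. Tnfsf10, which encodes the ligand TRAIL, had 50.8, 71.0 and 66.5 CPM with TP-3654, against 41.9, 41.4 and 44.1 CPM with vehicle. Every TP-3654 library lay above every vehicle library (log2 fold change 0.56, SE 0.14, edgeR adjusted p = 0.117, DESeq2 adjusted p = 0.0305). The receptor gene Fas had 0.870 ± 0.284 CPM with TP-3654 and 1.88 ± 0.198 CPM with vehicle, a low level in both. Tnfrsf1a, the main TNF receptor gene, had 128 ± 17.8 CPM with TP-3654 and 157 ± 4.27 CPM with vehicle.

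Bax, Bbc3 and Pmaip1 are known p53 targets in mouse cells, so a list of 20 other genes of the p53 pathway was read beside them. In that list 1 gene was higher and 1 lower at an unadjusted p under 0.05, with a median log2 fold change of 0.05. The nucleotide reductase subunit gene Rrm2b had 13.9 ± 2.96 CPM with TP-3654 and 10.04 ± 0.601 CPM with vehicle. Tigar, which lowers glycolytic flux, had 15 ± 2.77 CPM with TP-3654 and 20.2 ± 2.17 CPM with vehicle. Cdkn1a and Mdm2, the best known p53 targets, were named after their values were seen. Their log2 fold changes were -0.04 and 0.07, with unadjusted edgeR p of 0.828 and 0.558. Over the list the log2 fold changes ran from -0.46 for Perp to 0.65 for Ddit4, so these genes do not stand for it. A part of p53 in the values of the members was not tested.

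The list of regulators of the members holds 14-3-3, FOXO and STAT genes, enzymes that act on MCL1, and the Pim kinases. Of its 24 genes, 3 were higher and 0 lower at an unadjusted p under 0.05, with a median of -0.02. Pim2 had 71.0, 130 and 73.0 CPM with TP-3654, against 46.1, 32.0 and 41.2 CPM with vehicle (log2 fold change 1.20, SE 0.26, edgeR adjusted p = 0.107, DESeq2 adjusted p = 0.000228). Huwe1, a ubiquitin ligase that marks MCL1 for breakdown, had 451 ± 112 CPM with TP-3654 and 339 ± 34.2 CPM with vehicle. Stat3, a transcription factor that JAK kinases activate, had 258 ± 43.4 CPM with TP-3654 and 206 ± 6.78 CPM with vehicle.

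**Figure D5:**
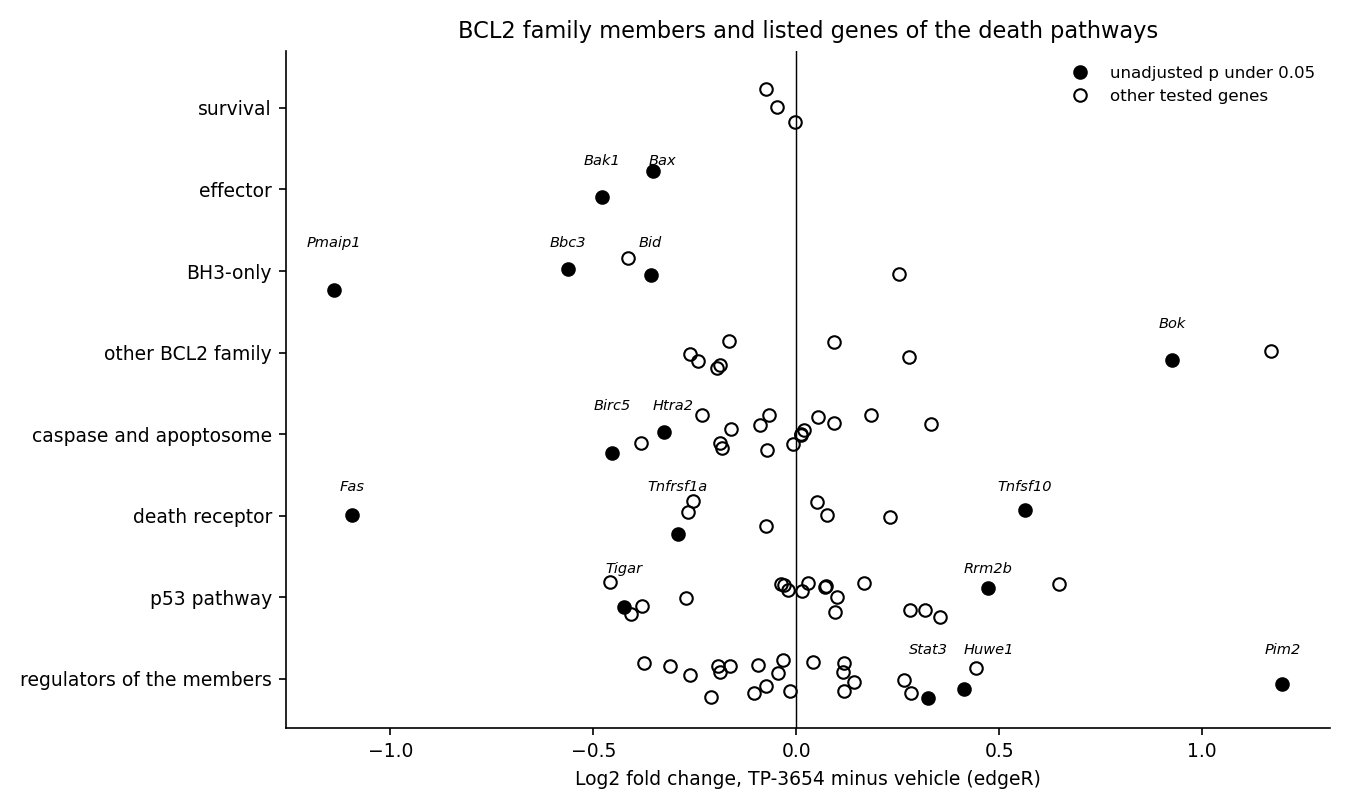
Log2 fold change, TP-3654 minus vehicle (x axis), of the tested genes of the 3 member classes and the 5 lists of other genes, less 1 caspase list gene that is not plotted, with filled points for an unadjusted p under 0.05. The filled points among the members all lie below 0, and the 3 filled points among the 24 regulators all lie above 0. Over all tested genes, 6.84% were lower and 10.2% higher by that rule.

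The profiles most like each of the 5 members were sought among 10952 genes, by the root mean square difference in log2 CPM centred over the 6 libraries. Nearest to Pmaip1 were Cebpa at 0.21, Slc22a4 at 0.23 and B3gnt8 at 0.23. Cebpa encodes the factor that drives myeloid commitment. Near to Bax were H2afv and Tubd1, at 0.03 each. Nearest to Bak1 were Mrpl36, Timm13 and Metrn, at 0.05 each. Nearest to Bid were Dolpp1, Ndufa6 and Mis18a, at 0.04 each. For Bbc3 they were Dand5, Eepd1 and Alyref2, at 0.07 to 0.08. Only the Pmaip1 neighbours had differences as large as 0.21. The measure is not scaled to the size of a gene's change, and Pmaip1 had the largest of the members (log2 fold change -1.14). It therefore cannot tell a profile of unusual shape from one with larger changes.

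Markers of other cells moved with the groups. The 15 granulocyte-monocyte progenitor genes included 11 that were lower at an unadjusted p under 0.05, with 0 higher, and they summed to 3712 to 9235 CPM with TP-3654 and 12434 to 15627 CPM with vehicle. Of 15 stem cell genes, 8 were higher and 0 lower, with sums of 848 to 1009 CPM with TP-3654 and 663 to 778 CPM with vehicle. The sums of the 8 lymphoid-primed genes counted were 552 to 672 CPM with TP-3654 and 319 to 468 CPM with vehicle, and 3 of the 6 tested were higher and 0 lower by that rule. The part of these shifts in the values of the members was not tested.

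The T and NK cell sum, almost all of it Nkg7, did not overlap between groups. It was 137 to 219 CPM with TP-3654 and 226 to 266 CPM with vehicle. The sums of the lists that follow did overlap. Erythroid sums were 1258 to 2607 CPM with TP-3654 and 1230 to 2434 CPM with vehicle. These sums hide differences between genes. Gata1 had 25.8 to 76.3 CPM with TP-3654 and 80.9 to 93.0 CPM with vehicle. TP-3654 replicate 3 had the lowest Klf1 (5.88 CPM), Epor (5.47 CPM) and Ermap (8.23 CPM) of all libraries. Its Hbb-bt (205 CPM) and Hba-a1 (332 CPM) lay above every vehicle library. Of the 12 erythroid genes tested, 0 were higher and 0 lower at an unadjusted p under 0.05. Megakaryocyte sums were 386 to 421 CPM with TP-3654 and 342 to 391 CPM with vehicle. Mature neutrophil and monocyte sums were 235 to 355 CPM with TP-3654 and 304 to 730 CPM with vehicle. The 730 CPM came from vehicle replicate 1, which had 39.0 CPM of S100a8, 40.2 of S100a9 and 16.2 of Ngp. In vehicle replicates 2 and 3 each of these genes stayed at or below 0.504 CPM. Mast cell and basophil sums were 107 to 436 CPM with TP-3654 and 361 to 437 CPM with vehicle, with the lowest in TP-3654 replicate 3, and 3 of these 7 genes were lower and 0 higher at an unadjusted p under 0.05. B cell sums were 28.5 to 31.4 CPM with TP-3654 and 28.5 to 44.5 CPM with vehicle.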

How the data were processed

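The authors deposited raw read counts per Entrez gene, 1 column per library, with no normalization, per the file headers. Their comparison table holds, per the file headers, signal values that are means of normalized counts, log2 fold changes with standard errors, a Wald statistic as a score, and raw and adjusted p-values, all deposited by the authors. The submitters' processing notes list HISAT2 2.1.0, SAMtools 1.9.0 and DESeq2, with GRCm38 (mm10). Which program counted reads, with what annotation and strand, was not given in the sources used here. Library totals ran from 20582057 to 25315596 counts, and a count of 3 equals 0.116 to 0.153 CPM.

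Counts were tested with edgeR 4.0.16 in R 4.3.3 (TMM, filterByExpr, robust quasi-likelihood fit, Benjamini-Hochberg adjustment over 13149 genes, called under 0.05, 2696 genes removed). SEs were derived by dividing each log2 fold change by the root of its F statistic, and the 95% interval uses the moderated degrees of freedom. Alternatives were DESeq2 1.42.0, limma 3.58.1 (voom, with and without sample weights), a non-robust fit, other factors, other filters, a replicate block and leaving out each library. Symbols came from the authors' deposited table, then RefSeq of GRCm38.p6, which also gave gene coordinates. Exon lengths, shared 31-base words, exon overlaps and coding bases came from GENCODE M21 of GRCm38. All members are named, with up to 4 genes per list of smallest unadjusted p under 0.05, and the 3 nearest profiles (mean log2 CPM of at least 1, no predicted or pseudogene symbol). The members and lists were chosen with earlier results of these data known. Some genes that these rules name are not reported here. Same-numbered libraries were not treated as pairs.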

Additional observations from a re-analysis of the deposited data

How the results depend on the processing

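The number of genes called, 0 by edgeR with all libraries, was 657 by DESeq2, 147 by limma-voom with sample weights, 5 with no low-count filter and 3 with the replicate block. It was 0 to 31 with 1 library left out (7, 18 and 31 without TP-3654 replicate 1, 2 and 3). At an unadjusted p under 0.05 edgeR had 2244 genes. The number of members called was 1, Pmaip1, by DESeq2 and 0 in the other alternatives. The 5 members at an unadjusted p under 0.05 became 3 by limma-voom with sample weights (6.74% of all tested genes were lower by that rule), 2 with library totals alone (4.79%) and 3 with the replicate block (6.15%). With 1 library left out they numbered 2 to 6: 3 without TP-3654 replicate 3 or vehicle replicate 1, 2 without vehicle replicate 3. The members lower by that rule without TP-3654 replicate 3 stood against 5.27% of all genes. The cause of these shifts was not tested. Same-numbered libraries share only a number (correlations of their deviations -0.012, -0.015 and 0.031), and with that number as a replicate block the log2 fold change of Pmaip1 was -1.17 (edgeR adjusted p = 0.0878).

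Only survival genes changed sign, none of them called. With 1 library left out, the log2 fold change ran from -0.144 to 0.108 for Bcl2, above 0 when replicate 2 of either group was dropped. It ran from -0.172 to 0.0917 for Bcl2l1, above 0 when TP-3654 replicate 3 was dropped, and from -0.0676 to 0.0611 for Mcl1. By limma-voom with sample weights it was 0.0722 for Bcl2l1 and 0.0411 for Mcl1. Mcl1 was also at 0.0119 with upper quartile factors and 0.0094 with library totals alone. The other 7 members kept their sign in all 16 alternatives. The adjusted p of Pmaip1 ranged from 0.00107 (DESeq2) to 0.317 (without vehicle replicate 2). With the longest transcript, vehicle levels per kilobase were 19.6 for Bcl2, 28.9 for Bad, 48.9 for Bid and 4.87 for Bcl2l11.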
